A study of Homo sapiens with 4 samples.

Results

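Genes of the epithelial-mesenchymal transition were examined for regions recovered with an HA antibody in chromatin immunoprecipitation sequencing (ChIP-seq) labelled as PD-L1. The group held 10 listed genes of 19974 protein-coding genes on chromosomes 1 to 22 and X: the transcription factors ZEB1, ZEB2, SNAI1, SNAI2 and TWIST1, the mesenchymal genes VIM, FN1, CDH2 and AXL, and the epithelial gene CDH1. Each gene was taken with its RefSeq span and 10 kb on each side, called the gene window here. The cells, grown without treatment, were from 1 subclone of MDA-MB-231, a human cell line from a triple-negative breast tumour. There were 2 ChIP replicates made with the HA antibody and 2 inputs without antibody, 1 for each replicate, all labelled wild type for genotype. The labels do not say how cells labelled wild type came to carry the HA tag. No mock precipitation was analysed here, so chromatin recovered without the target cannot be told apart from bound chromatin. For each replicate a separate list of broad peaks (hg38) was used, and the inputs entered only through the peak caller. Depth of the libraries is unknown.

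In the transition, epithelial cells lose the contacts that hold them in a sheet and gain the shape and motility of mesenchymal cells. ZEB, SNAI and TWIST proteins drive it: they bind E-boxes in DNA, and ZEB and SNAI proteins repress CDH1, the gene of E-cadherin. PD-L1 is known as the ligand of the inhibitory receptor PD-1 on T cells. MDA-MB-231 is known as a mesenchymal-like line in which VIM, AXL and ZEB1 are active and CDH1 is silent. These 4 genes formed the comparison of active with silent members, and the other 6 members were not classed. The lists hold no expression values, so the activity of the genes was not measured here.

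The promoters of AXL and ZEB1 are shown first because they were the only members, of the 6 with listed starts, with peak bases in the 250 bases before a listed start. Both belonged to replicate 1 alone. The sequences are from RefSeq on GRCh38.p14 (hg38), plus strand, and run 5′ to 3′. The AXL windows lay before the starts at 19:41219223 and 19:41226755 and were covered whole (250 of 250 bases) by peaks of replicate 1. Capitals mark E-boxes of the form CANNTG in them.
AXL, 19:41218973-41219222: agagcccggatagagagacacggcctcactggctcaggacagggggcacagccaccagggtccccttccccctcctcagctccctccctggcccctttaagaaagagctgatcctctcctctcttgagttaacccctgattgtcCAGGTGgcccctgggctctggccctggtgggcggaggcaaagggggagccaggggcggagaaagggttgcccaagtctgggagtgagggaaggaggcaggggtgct
AXL, 19:41226505-41226754: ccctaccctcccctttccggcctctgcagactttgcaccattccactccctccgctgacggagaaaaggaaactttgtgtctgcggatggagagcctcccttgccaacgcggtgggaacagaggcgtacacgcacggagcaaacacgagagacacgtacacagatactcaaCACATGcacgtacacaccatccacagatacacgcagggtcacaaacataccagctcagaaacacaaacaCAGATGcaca
The ZEB1 window lay before the second of 7 listed starts, at 10:31318818, and capitals mark the 206 of 250 bases inside a peak of replicate 1.
ZEB1, 10:31318568-31318817: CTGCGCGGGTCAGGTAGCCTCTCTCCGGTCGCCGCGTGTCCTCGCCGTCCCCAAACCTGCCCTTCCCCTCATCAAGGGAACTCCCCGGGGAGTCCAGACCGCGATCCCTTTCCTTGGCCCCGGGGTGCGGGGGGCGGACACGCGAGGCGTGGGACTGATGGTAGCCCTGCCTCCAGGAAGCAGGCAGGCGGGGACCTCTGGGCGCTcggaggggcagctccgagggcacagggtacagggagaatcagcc

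The E-box CACCTG or its reverse complement CAGGTG, the form that ZEB and SNAI proteins bind, began at base 145 of the first AXL window. It was absent from the second AXL window and from the ZEB1 window printed. Of 14 promoter windows of 300 bases (250 before to 50 after a start) listed for AXL, VIM, ZEB1, ZEB2, FN1 and CDH2, 3 held CACCTG on either strand, 2 of them at ZEB1 and 1 at AXL. Of all 35116 windows in the table, 20.6% held it. The wider motif CANNTG, which includes CACCTG, was in 8 of the 14 windows and in 68.7% of all windows. A match of letters is not a measured binding site. A further 146 of the 250 bases before the ZEB1 start at 10:31321201 also lay in a peak of replicate 1.

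All 10 members had a peak of replicate 1 in the gene window, 9 had a peak of replicate 2, and 5 had a shared region. A shared region joins overlapping peaks (1 bp or more) and holds peaks from both replicates. Whether the lists of the replicates are independent is not known, because replicate 2 peaks are named with the unexplained word Merge. Among all protein-coding genes, 83.2% had a replicate 1 peak, 74.5% a replicate 2 peak and 59.5% a shared region in the same kind of window. The 5 of 10 members with a shared region were near that background, which was not matched for window length or chromosome. No test was made, because the members were listed with results of these data known. The 24 shared regions were unevenly spread. AXL held 10, CDH1 held 7, SNAI1 held 4, FN1 held 2 and SNAI2 held 1, while VIM, ZEB1, ZEB2, TWIST1 and CDH2 held none.

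**Figure D1:**
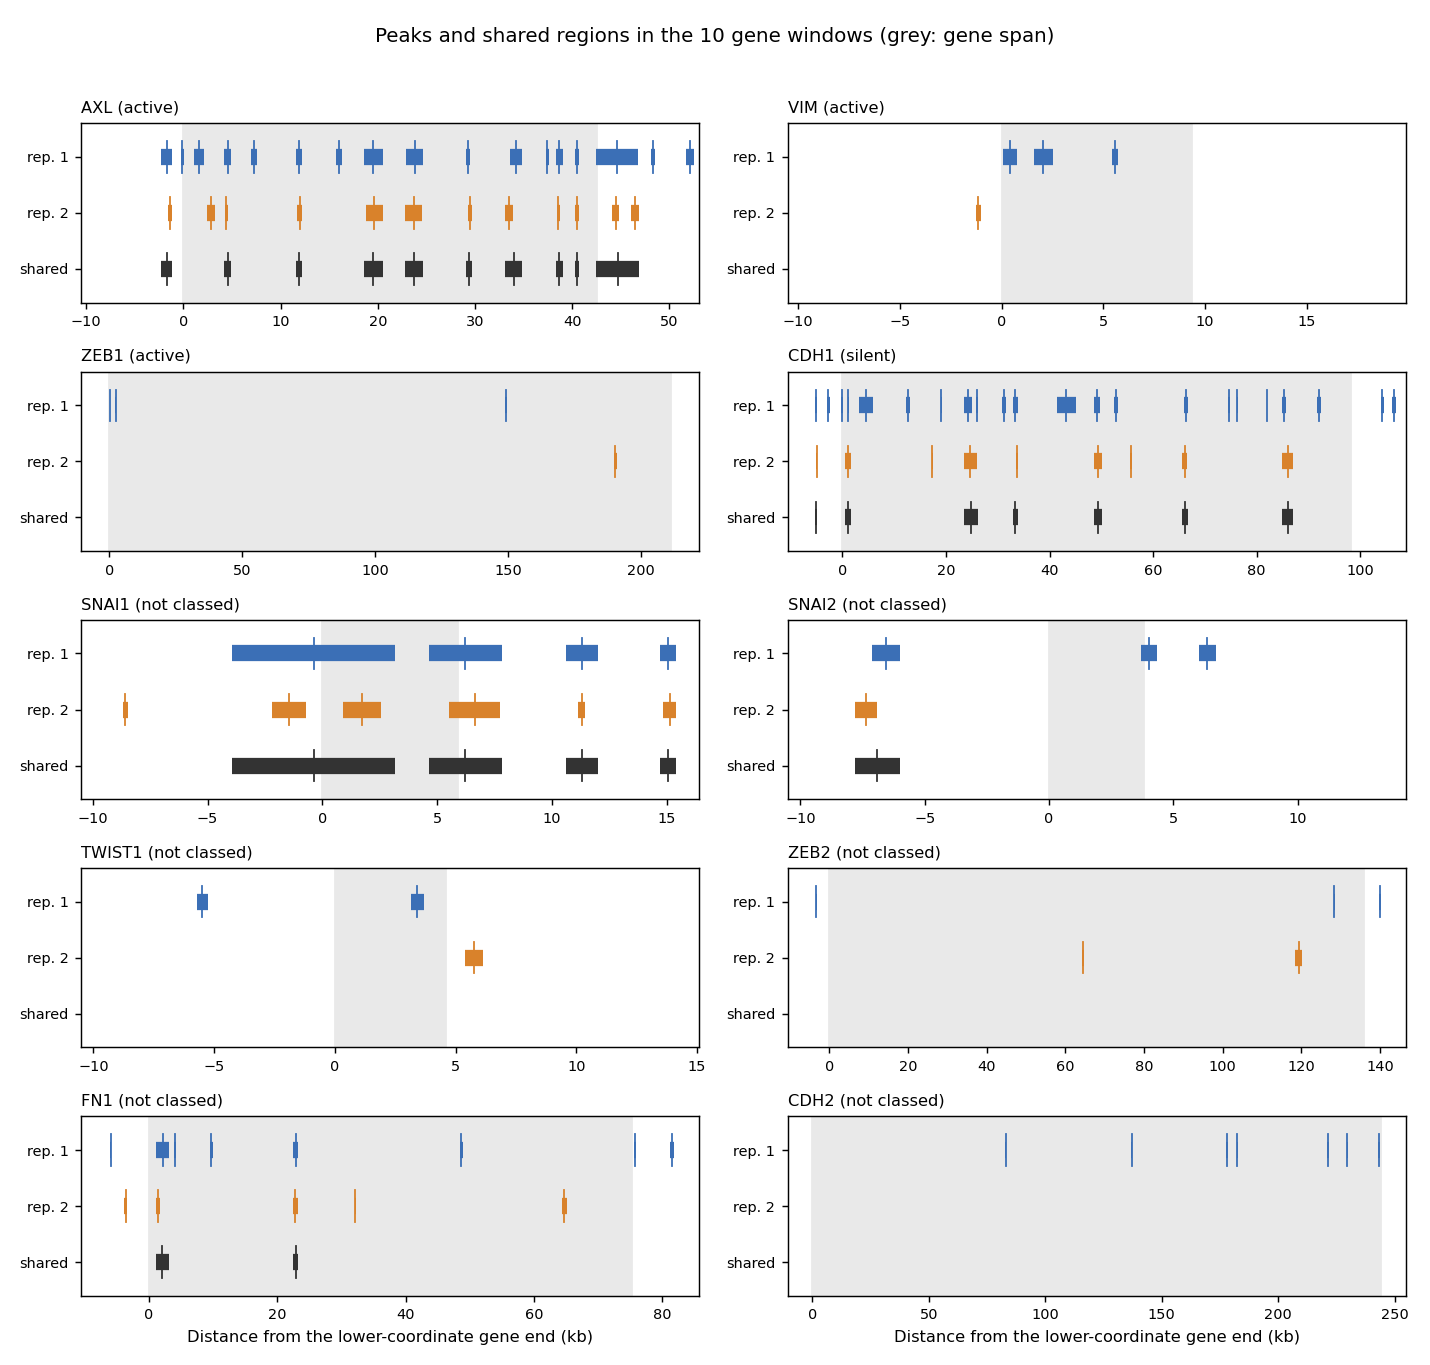
Peaks of replicate 1 (blue), peaks of replicate 2 (orange) and shared regions (black) in each gene window, by distance from the lower-coordinate gene end in kb; grey marks the gene span, and a thin tick marks the centre of each. The rows of AXL and CDH1 hold separate bars spread along the gene, with 10 and 7 shared regions, whereas VIM, ZEB1, ZEB2, TWIST1 and CDH2 have none.

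The number of peaks did not separate the active members from the silent one. AXL, the receptor tyrosine kinase of the ligand GAS6, had 17 peaks in replicate 1, 12 in replicate 2 and 10 shared regions in a window of 62.5 kb. VIM, the gene of the intermediate filament vimentin, had 3 peaks in replicate 1, 1 in replicate 2 and no shared region in 29.4 kb. ZEB1, a zinc finger repressor of epithelial genes, had 3, 1 and none in 231 kb. The silent CDH1 had 22 peaks in replicate 1, 9 in replicate 2 and 7 shared regions in 118 kb. Per 10 kb of window, shared regions numbered 1.60 at AXL and 0 at VIM and ZEB1, against 0.592 at CDH1. The silent gene thus lay between the active ones, below AXL and above VIM and ZEB1. With only the 50% of peaks of higher fold in each list, AXL had 2 shared regions, against 3 at CDH1, and VIM and ZEB1 still had none. With 3 active genes and 1 silent gene, each measured once per replicate, no test of the difference was made.

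At AXL (19:41219223-41261766) the replicates overlapped at 10 separate places, spread from just before the gene to its far end. Of its 17 replicate 1 peaks, 10 overlapped replicate 2, and of its 12 replicate 2 peaks, 11 overlapped replicate 1. Fold enrichment, the authors' ratio of each peak over the caller's background, was 2.78 to 3.52 in replicate 1 and 1.88 to 2.66 in replicate 2. Shared regions covered 23.3% of the window. The region nearest to the first start lay 1128 bp before it (19:41216920-41218095), with fold enrichments of 3.52 in replicate 1 and 2.66 in replicate 2. The peak over the first start itself (19:41218943-41219304, fold 3.06) was 926 bp from the nearest peak of replicate 2. That over the second start (19:41226127-41226833, fold 2.96) was 2329 bp from it. The widest AXL region, 4480 bp at 19:41261638-41266117, crossed the far end of the gene and reached into HNRNPUL1, the gene of an RNA-binding protein. Of the 10 regions, 4 also fell in the window of HNRNPUL1.

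AXL was rich in peaks for its chromosome and length. Of 849 other chromosome 19 genes whose window was 0.5 to 2 times as long, 2.12% had at least 10 shared regions, 7.54% had at least 17 replicate 1 peaks and 3.18% had at least 12 replicate 2 peaks. The AXL window held 1.60 shared regions per 10 kb, against 0.34 in the 500 kb on each side, a ratio of 4.70. The ratio of window to surroundings was 3.09 in replicate 1 and 3.20 in replicate 2. Ratios this large were not particular to AXL: for shared regions the ratio was 6.99 at SNAI2, on 1 region, and slightly higher at FN1, on 2 regions.

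CDH1 (16:68737292-68835537) carried peaks from end to end. Fold enrichment was 2.62 to 3.58 in replicate 1 and 1.89 to 2.53 in replicate 2. Of its peaks, 8 of 22 in replicate 1 and 7 of 9 in replicate 2 overlapped the other list. A replicate 1 peak crossed the lower-coordinate end (16:68736965-68737400, fold 2.97) and was 501 bp from the nearest replicate 2 peak. Just inside it a shared region began 609 bp from that end (16:68737901-68738883), with 2.75 in replicate 1 and 2.31 in replicate 2. The other 6 regions included 1 within CDH3, the P-cadherin gene next to it (16:68732088-68732455), and the widest, 2846 bp, at 16:68760689-68763534. That region had the highest −log10 q of the CDH1 peaks in replicate 1, 2.97, and a fold enrichment of 3.43 there and of 2.05 in replicate 2.

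The number of regions at CDH1 was not unusual for its place. Among 212 other chromosome 16 genes of like window length, 30.2% had at least 7 shared regions, and the median was 3. At least 22 replicate 1 peaks were met in 19.8% of them, and at least 9 replicate 2 peaks in 41.0%. Density in the window and in the 500 kb on each side was nearly the same, 0.592 and 0.61 shared regions per 10 kb.

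VIM (10:17228241-17237593) had peaks of both replicates near its start that did not meet. Replicate 1 peaks lay 44 bp, 1588 bp and 5425 bp after the start, with fold enrichments of 3.02, 3.42 and 3.28. The replicate 2 peak lay 998 bp before the start (10:17226967-17227243), with a fold of 2.50 and a −log10 q of 3.05, and 1042 bp from the nearest replicate 1 peak. The peaks nearest to the start, of both replicates, overlap VIM-AS1, a non-coding gene of the same locus, so they cannot be given to VIM alone. Of 374 other chromosome 10 genes of like length, 72.7% had at least 1 shared region.

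ZEB1 (10:31318417-31529804) had fewer peaks than its surroundings in both lists. Its replicate 1 peaks lay at 10:31318513-31318773 (fold 4.02), 10:31320555-31321096 (2.74) and, far inside the gene, 10:31467268-31467932 (3.63). The first had the highest −log10 q of all member peaks in replicate 1, 3.58, and overlapped ZEB1-AS1, a non-coding gene. The only replicate 2 peak, at 10:31508410-31509269 (fold 2.46), was 40478 bp from the nearest replicate 1 peak.

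The ZEB1 window held 0.130 replicate 1 peaks per 10 kb and 0.0432 replicate 2 peaks per 10 kb, against 0.91 and 0.4 in the 500 kb on each side. Those are 0.142 and 0.108 times the densities around it. No other member was below its surroundings in both lists, although CDH2, with no replicate 2 peak, was lower still in that list. Of 152 other chromosome 10 genes of like length, 86.2% had a shared region, with a median of 4, and every one had a replicate 1 peak, with a median of 14.5. In replicate 1, 11.8% of them had 3 peaks or fewer.

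**Figure D2:**
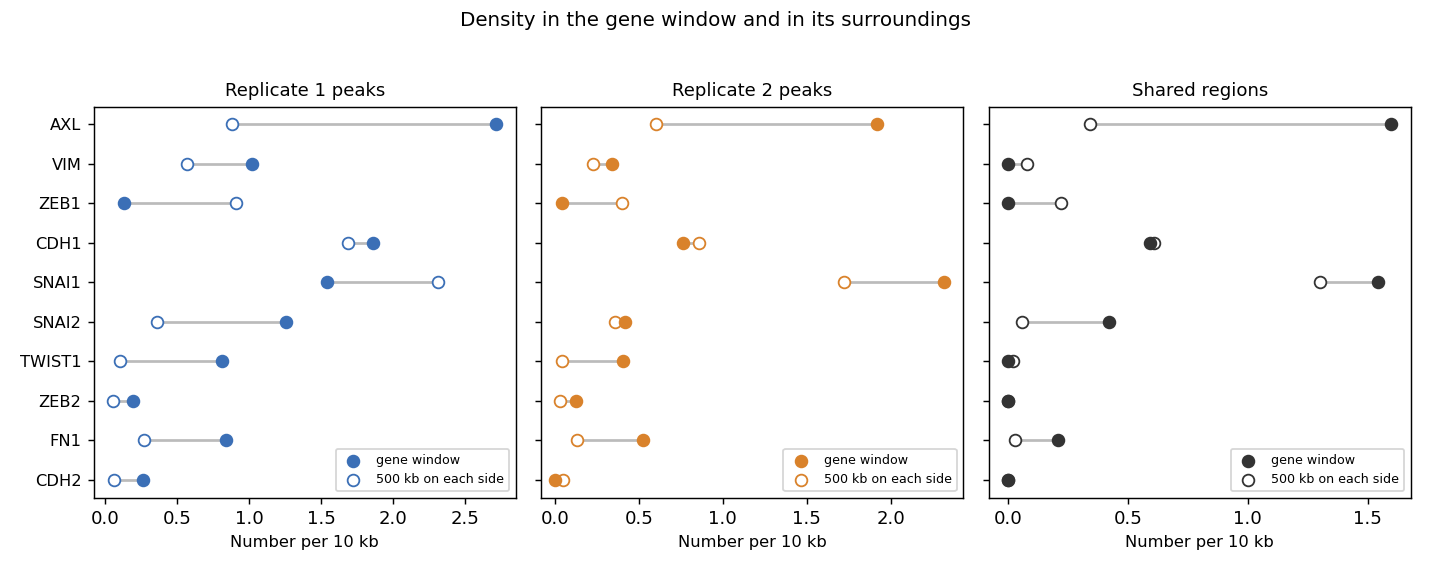
Peaks of replicate 1, peaks of replicate 2 and shared regions per 10 kb in the gene window (filled) and in the 500 kb on each side of it (open), for each member. AXL stands above its surroundings in all 3 panels and ZEB1 below them, while the points of CDH1 lie close together.

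Among the SNAI and TWIST factors, peaks lay at the genes or a few kb away, and SNAI1 alone had shared regions over its ends. SNAI1 (20:49982980-49988886), a short zinc finger gene, had 4 peaks in replicate 1, 6 in replicate 2 and 4 shared regions. Its widest replicate 1 peak, 7123 bp at 20:49979038-49986160, crossed the lower-coordinate end, and 2 replicate 2 peaks lay within it. Replicate 1 peaks covered 47.7% of its window and replicate 2 peaks 24.9%. Fold enrichment at SNAI1 was low, 2.78 to 3.19 in replicate 1 and 1.80 to 2.21 in replicate 2. Chromosome 20 had the most shared regions per Mb of all chromosomes, and of 328 other genes of like length there, 39.9% had at least 4. The window of SNAI1 held 1.54 shared regions per 10 kb, against 1.3 in the 500 kb on each side.

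SNAI2 (8:48917598-48921429), the gene of the related factor Slug, had 3 peaks in replicate 1 and 1 in replicate 2. Its single shared region lay 5998 bp beyond the lower-coordinate end (8:48909796-48911600), with 3.37 in replicate 1 and 2.67 in replicate 2. A replicate 1 peak across the other end (fold 3.17) had no partner within 10 kb; the nearest replicate 2 peak was 10617 bp away. TWIST1 (7:19113047-19117636), a basic helix-loop-helix factor, had 2 peaks in replicate 1 and 1 in replicate 2. A replicate 1 peak inside the gene (7:19116206-19116724, fold 3.30) and the replicate 2 peak beyond its upper end (7:19118438-19119170, fold 2.25) were 1714 bp apart. The 500 kb on each side of TWIST1 held 10 replicate 1 peaks and 4 replicate 2 peaks in all, and the densities in its window were 8.13 and 10.2 times as high in replicates 1 and 2, on 3 peaks in all.

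ZEB2 and CDH2 are long genes with few peaks and no shared region. ZEB2 (2:144384081-144520119), a paralogue of ZEB1, had 3 peaks in replicate 1 and 2 in replicate 2, none closer to the start than 3826 bp. The nearest peaks of the replicates were 8019 bp apart. CDH2 (18:27932879-28177130), the gene of N-cadherin, had 7 peaks in replicate 1, with fold enrichments of 2.92 to 3.64, and was the only member with none in replicate 2. Of its replicate 1 peaks, 1 lay 663 bp inside the gene from the first start. The nearest replicate 2 peak to any of them was 227538 bp away. Of 79 other chromosome 18 genes of like length, 88.6% had a replicate 2 peak and 67.1% had a shared region. Both ZEB2 and CDH2 lie in peak-poor stretches, with 5 and 6 replicate 1 peaks and no shared region in the 500 kb on each side.

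FN1 (2:215360865-215436068), the gene of the matrix protein fibronectin, had 8 peaks in replicate 1, 5 in replicate 2 and 2 shared regions, both far from the start. One lay at the end opposite the start (2:215361966-215363994), with fold enrichments of 3.06 in replicate 1 and 2.83 in replicate 2, and overlapped ATIC, a gene of purine synthesis. The other (2:215383345-215384154) lay 51914 bp inside the gene from the start, with 3.07 in replicate 1 and 2.19 in replicate 2. A replicate 1 peak 319 bp before the start (fold 2.64) overlapped FN1-DT, a non-coding gene, and had no replicate 2 peak within 10 kb. The FN1 window also held the member peak with the highest fold in replicate 1, 4.08, which lay within ATIC. Of 597 other chromosome 2 genes of like length, 37.4% had at least 2 shared regions, and the medians were 4 replicate 1 peaks, 2 replicate 2 peaks and 1 shared region. Per 10 kb, FN1 held 0.210 shared regions, against 0.03 in the 500 kb on each side.

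**Figure D3:**
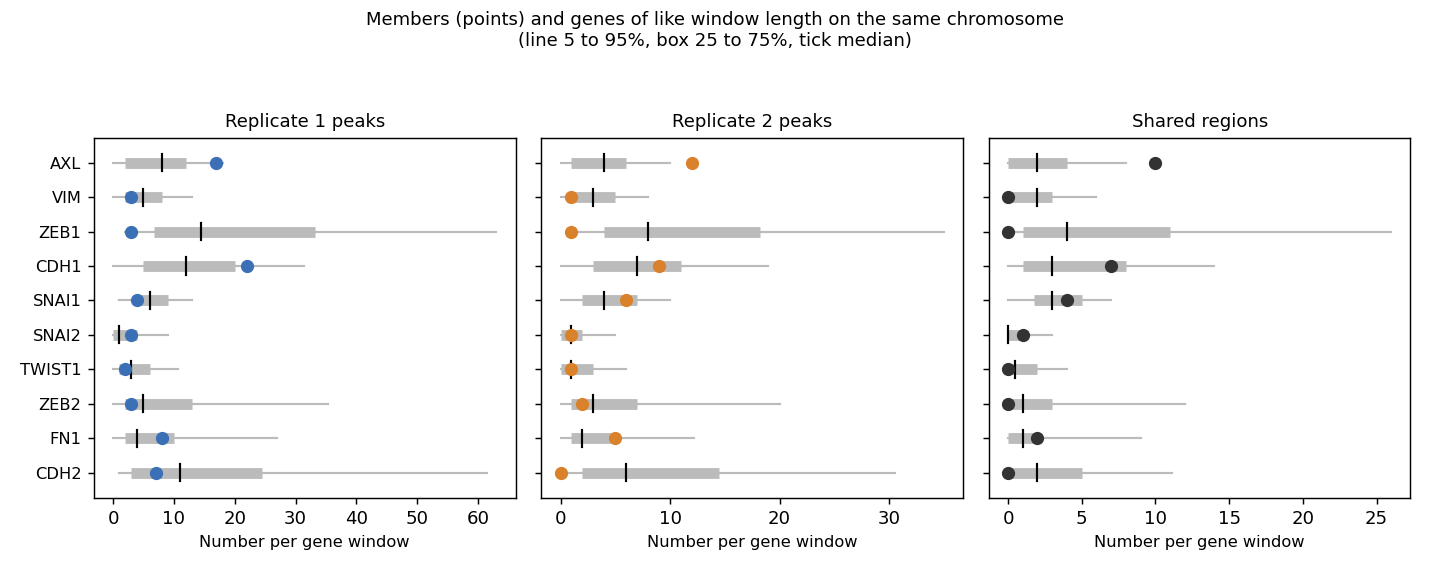
Number of replicate 1 peaks, replicate 2 peaks and shared regions in each member's window (point), over the spread of other genes on the same chromosome with a window 0.5 to 2 times as long (grey). With 10 shared regions AXL lies beyond the 95% point of its set, CDH1 with 7 lies within the box of its set, and ZEB1 with 3 replicate 1 peaks lies at the low end.

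Near gene ends, the share of members with a shared region was close to that of all genes. Within 1 kb of either gene end, 9 of 10 members had a replicate 1 peak (68.8% of all genes). Of the 10, 4 had a replicate 2 peak (37.1%) and 3 had a shared region (32.9%). Those 3 were SNAI1, CDH1 and, at its far end, AXL. Starts were listed for 6 members; for SNAI1, SNAI2, TWIST1 and CDH1 both gene ends were used. Within 1 kb of a listed start, 5 of 6 members had a replicate 1 peak (68.0% of 15813 genes with listed starts), 1 had a replicate 2 peak (29.8%) and 0 had a shared region (26.8%). The replicate 2 peak was that of VIM, 998 bp from the start and so just inside the limit. Within 1 kb of either gene end, all 4 of the others had a replicate 1 peak (68.8% of all genes), 3 had a replicate 2 peak (37.1%) and 2, SNAI1 and CDH1, had a shared region (32.9%). At AXL a shared region stopped 1128 bp short of the first start, just outside the limit. With starts widened to 5 kb on each side, 3 members had a shared region near a start or end.

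Overlap between replicates was concentrated in 3 members. In all member windows, 25 of 72 replicate 1 peaks (34.7%, Wilson 95% interval 24.8% to 46.2%) overlapped replicate 2, against 30.2% in all gene windows. In replicate 2, 26 of 38 peaks (68.4%, 52.5% to 80.9%) overlapped replicate 1, against 56.8%. The intervals cover counting error only, and neighbouring peaks are not independent. In AXL, CDH1 and SNAI1, grouped after their values were seen, 22 of 43 replicate 1 peaks (51.2%) and 23 of 27 replicate 2 peaks (85.2%) overlapped the other list. In the other 7 members, 3 of 29 (10.3%) and 3 of 11 (27.3%) did.

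In the 500 kb on each side, 58.4% of replicate 1 peaks overlapped replicate 2 around SNAI1, 40.9% around AXL and 37.9% around CDH1. Around the other 7 members that share was 0% to 24.2%. Of replicate 2 peaks, 91.3% overlapped replicate 1 around SNAI1, 80.2% around CDH1 and 56.7% around AXL. Around the other 7 members it was 0% to 57.5%, the highest at ZEB1, so in replicate 2 the surroundings of AXL did not stand above all of these. Shared regions per Mb ranked chromosomes 20, 19 and 16, which carry SNAI1, AXL and CDH1, first, second and in place 4 of 23. Chromosome 10, which carries VIM and ZEB1, was in place 5. What the density of a chromosome contributed to each gene's count was not tested.

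Median fold enrichment of the member peaks was close to that in all gene windows, while more of them reached a −log10 q of 2. Fold enrichment had a median of 3.11 over the 72 replicate 1 peaks in member windows, against 3.14 in all gene windows, and of 2.23 over the 38 replicate 2 peaks, against 2.25. The highest −log10 q of a member peak was 3.58 in replicate 1 and 3.15 in replicate 2, and the lowest was 1.38 and 1.39, near the floor of the lists at 1.30. A −log10 q of at least 2 was reached by 36 of 72 replicate 1 peaks (50%, against 41.8% in all gene windows) and by 19 of 38 replicate 2 peaks (50%, against 30.2%). The lists differ in length, with 166548 and 93591 peaks on the chromosomes used, and in fold, so a value is read only within its list.

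**Figure D4:**
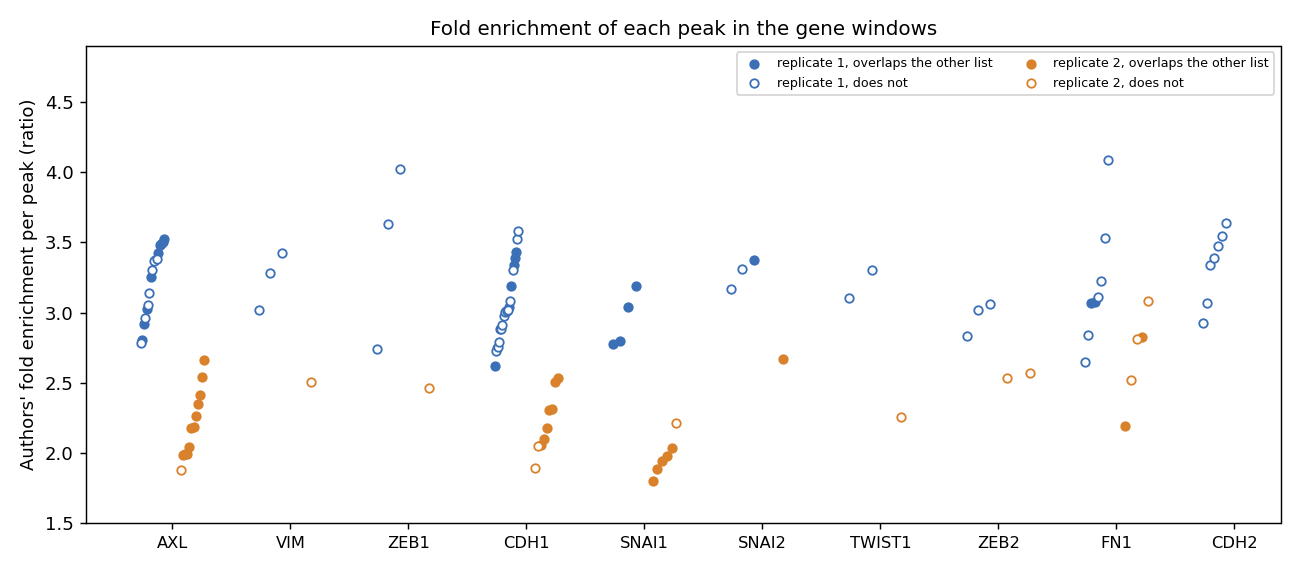
The authors' fold enrichment of every peak in the gene windows, replicate 1 in blue and replicate 2 in orange; filled points overlap a peak of the other list and open points do not. In replicate 1, filled and open points of AXL and CDH1 overlap in range, and the highest points, 4.08 at FN1 and 4.02 at ZEB1, are open.

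Further lists set the members among other genes of the transition, and both had a larger share of genes with a shared region than the members, 5 of 10. Of 36 genes of the mesenchymal side, 36 had a replicate 1 peak, 34 a replicate 2 peak and 28 (77.8%) a shared region in the gene window. Of 36 genes of the epithelial side, 33 had a replicate 1 peak, 31 a replicate 2 peak and 31 (86.1%) a shared region. Among all protein-coding genes these shares were 83.2%, 74.5% and 59.5%. The members were thus near the share of all genes with a shared region, and both further lists were above it. That share was matched neither for window length nor for chromosome. Among other genes of like window length on a member's chromosome, it ran from 34.0% for SNAI2 to 90.9% for SNAI1. The differences between the lists were not tested. Windows differed in length, with medians of 78.9 kb in the members, 64.6 kb on the mesenchymal side, 50.7 kb on the epithelial side and 44.2 kb in all genes. Median shared regions per 10 kb of window were 0.105 in the members, 0.359 on the mesenchymal side, 0.420 on the epithelial side and 0.159 in all genes. Near listed starts, 0 of 6 members, 5 of 24 mesenchymal-side genes (20.8%) and 6 of 20 epithelial-side genes (30%) had a shared region, against 26.8% of all genes with listed starts.

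The best-ranked mesenchymal-side genes with a shared region near a start or end were COL1A1, CD44 and FOXC2. COL1A1, a chain of type I collagen, had fold enrichments of 3.47 in replicate 1 and 2.49 in replicate 2. CD44, a receptor of hyaluronan, had 3.13 and 2.29, and FOXC2, a forkhead factor, had 3.42 and 2.09. Over all peaks the median fold was 3.14 in replicate 1 and 2.27 in replicate 2. CD44 thus lay close to both medians, and FOXC2 was below that of replicate 2. On the epithelial side the best-ranked genes were CTNNA1, CLDN4 and PKP3. All are genes of cell contacts, as are many of the genes listed for that side. The alpha-catenin gene CTNNA1, whose protein ties cadherins to actin, had 3.86 and 2.71, the tight junction gene CLDN4 had 3.61 and 2.30, and the plakophilin gene PKP3 had 3.42 and 2.37. CDH3 had 14 shared regions in its window, 2 of which were also counted for CDH1.

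Of both lists and the members, 3 genes had no peak in either list. All were tight junction genes of the epithelial side: OCLN and MARVELD2, which lie close together on chromosome 5, and TJP1 on chromosome 15, with windows of 85.6, 49.2 and 290 kb. Among all protein-coding genes, 14.1% had no peak in either list.

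**Figure D5:**
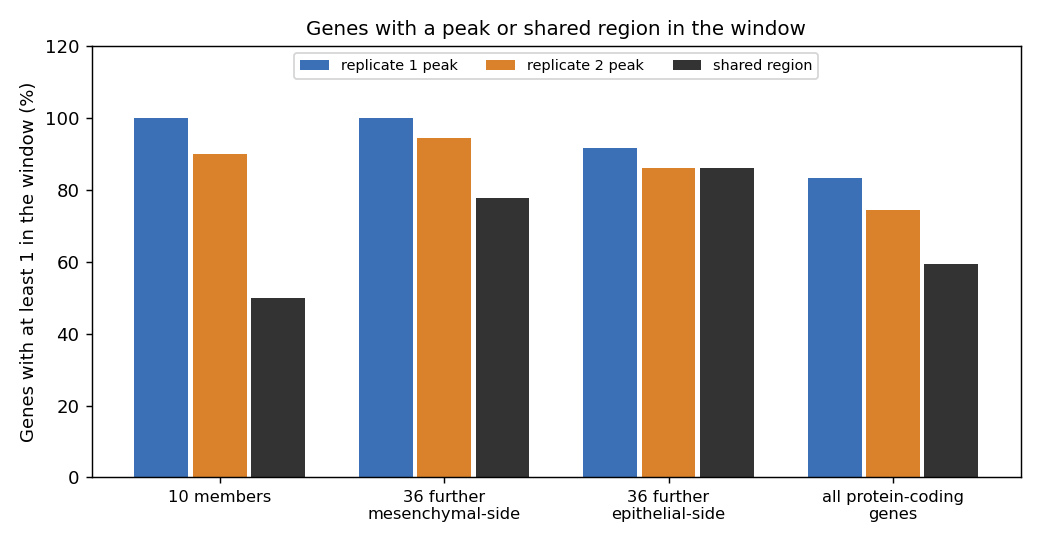
Percent of genes with at least 1 replicate 1 peak (blue), replicate 2 peak (orange) or shared region (black) in the gene window, for the 10 members, 36 further genes of the mesenchymal side, 36 of the epithelial side and all 19974 protein-coding genes. The shared-region bars stand at 50%, 77.8%, 86.1% and 59.5%.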

How the data were processed

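Broad peaks of 2 PD-L1 ChIP replicates were analysed, 1 list per replicate. Per the submitters' processing notes, Bowtie2 2.2.9, MACS2 2.1.1 and hg38 were used, with no role or order given; caller settings are not stated there, and library depth is unknown. Per the layout of the deposited lists, the authors' columns hold a score, the fold enrichment (a ratio over the caller's background), the −log10 p-value and the −log10 q-value of each peak; the score and the −log10 p-value were not used. Replicate 2 peaks are named with the word Merge, which no source explains, so whether the lists are independent is not known.

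Peaks on chromosomes 1 to 22 and X were kept, 166548 of 166628 and 93591 of 93618. Starts were made 1-based. Gene spans were those of RefSeq on GRCh38.p14 (hg38), and starts those of its promoter windows of 300 bases, listed for 15813 of 19974 protein-coding genes. Overlap functions were checked on simulated data against direct comparison. Shares have Wilson 95% intervals. No test across genes was made: members and lists were chosen with earlier results of these data known. Named are all 10 members, the 3 best-ranked genes of each further list (mean rank of fold in both replicates), list genes with no peak, and genes overlapping a member's peaks. Python 3.11.15, pandas 2.3.3, NumPy 2.4.6 and SciPy 1.17.1 were used.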

Additional observations from a re-analysis of the deposited data

How the results depend on the processing

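The count of members with a shared region, 5, was 4 with no flank, with flanks of 5 kb, with a reciprocal overlap of 50% and with centres within 500 bp; it was 3 at a −log10 q of 2 or more and 3 with the 50% of peaks with higher fold in each list. Without 1 replicate at a time it ranged from 9 to 10. VIM, ZEB1, ZEB2, TWIST1 and CDH2 had 0 shared regions under each of the 8 alternatives for windows, lists and overlap. Over the same alternatives AXL had 2 to 12, CDH1 3 to 7, SNAI1 0 to 8, FN1 0 to 2 and SNAI2 0 to 1. CDH1 exceeded AXL (3 and 2) with the peaks of higher fold. The SNAI2 region was not counted with no flank, flanks of 5 kb or a −log10 q of 2 or more. Reciprocal overlap of 50% and centres within 500 bp also left it out. Both FN1 regions were lost with the −log10 q limit and with the higher fold. The total of 24 shared regions was 8 with a −log10 q of 2 or more, 6 with the higher fold and 11 with reciprocal overlap. Members with a replicate 2 peak, 9, were 5 with a −log10 q of 2 or more; those with a replicate 1 peak were 8 to 10 throughout.

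The share of replicate 1 peaks that overlapped replicate 2, 34.7%, was 22.2% with a −log10 q of 2 or more, 17.1% with the higher fold, 15.3% with reciprocal overlap and 10.3% without AXL, CDH1 and SNAI1 (chosen after seeing the data). The share of replicate 2 peaks, 68.4%, was 42.1%, 35.3%, 28.9% and 27.3% under the same settings, and 47.4% both with equal numbers of peaks and with centres within 500 bp. Members with a shared region near a start or end, 2, were 1 with the −log10 q limit, 1 with equal numbers of peaks, 1 with reciprocal overlap, 1 with windows of 500 bp and 0 with the higher fold; without 1 replicate at a time the count ranged from 4 to 9. The −log10 q limit, the higher fold, equal numbers, the narrower flanks and windows of 500 bp admit fewer peaks or less sequence by construction. Reciprocal overlap is stricter than 1 bp, so it could only lower the shares of overlapping peaks. The rule of centres needs no overlap and joins such peaks up to 500 bp apart. Without 1 replicate a peak of the other list is enough. No paired analysis was possible because the lists hold no values of the inputs apart from the caller's fold. The low fold of the peaks and the unknown depth limit what an absent peak means: it shows only that no peak passed the authors' threshold.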
